A study of Mus musculus with 15 samples.

Results

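The genes described here make, recycle and use glutathione. They are the 9 listed genes of the glutathione peroxidase (Gpx) family, the 21 cytosolic, mitochondrial and peroxisomal glutathione S-transferases whose symbols start with Gsta, Gstk, Gstm, Gsto, Gstp, Gstt or Gstz, the 3 microsomal transferases (Mgst) and the 4 enzymes of glutathione synthesis and recycling, Gclc, Gclm, Gss and Gsr. They were taken by symbol from the authors' deposited tables, and each of the 3 tables held the same 37 symbols among 23393 genes. RNA with poly(A) tails was sequenced from kidneys of C57BL/6 mice of genotype ERRg fl/fl;Sim1-Cre (knockout) and from littermates of genotype ERRg fl/fl without Cre (control), so both groups carried the floxed alleles of Esrrg, the gene of the nuclear receptor ERRγ. By the titles there were 3 knockout and 3 control males at 3 months, 2 knockout and 2 control females at 3 weeks, and 3 knockout and 2 control males at 3 weeks. The labels do not state which cells Sim1-Cre reached. By its title the series asks how ERRγ shapes mitochondrial function and reabsorption in the kidney, and each comparison sets knockout against control at 1 age and sex.

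Glutathione is a cysteine-containing tripeptide kept at high levels inside cells. Glutamate-cysteine ligase (Gclc and Gclm) and glutathione synthetase (Gss) build it, peroxidases use it to reduce hydrogen peroxide and lipid peroxides, and glutathione reductase (Gsr) returns the oxidised form to the reduced one. Glutathione S-transferases join it to reactive chemicals so that these can be exported. The kidney is the main source of plasma glutathione peroxidase, Gpx3, which proximal tubule cells secrete, and it takes up and breaks down much of the circulating glutathione.

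The values are the authors' own results per gene and comparison, a mean of normalised counts over the libraries of both genotypes and a fold change on the log2 scale, printed with ± its standard error (SE). No value per kidney was used here. The headers leave the numerator of the fold change unnamed, and a positive value is read as higher in knockout. That reading rests on the series title and on the negative medians of proximal tubule, thick ascending limb and distal convoluted tubule markers. In 3-month males these medians came from only 5 of 20, 1 of 10 and 3 of 10 markers, since the others had no p-value. Principal cell markers of the collecting duct had positive medians, so tubular genes do not all point one way. With the ratio turned every higher and lower below would change places. In the authors' deposited table the targeted gene Esrrg was at -0.87 ± 0.57 in 3-month males without a p-value, at 1.04 ± 0.17 in 3-week females and at 0.82 ± 0.20 in 3-week males. The positive values at 3 weeks (adjusted p = 1.70e-08 in females and 0.000613 in males) go against that reading, and the labels do not say which exon was floxed. Esrrg therefore checks neither the labels nor the direction, and each direction below carries this limit. Summed over genes, the mean normalised counts came, in units of 1e6 counts, to 18.8 in 3-month males, 33.9 in 3-week females and 47.5 in 3-week males. The steps between the lowest means gave 5, 4 and 4 libraries in the same order, where the labels give 6, 4 and 5, and read with the same sign, 2 of them knockout in each comparison. One label of the 3-month knockouts reads female against male in title and characteristics, and in the authors' deposited table Xist had a mean of 11.9 normalised counts at 3 months, against 23848 in 3-week females. The tables were normalised separately, so levels across them show order of magnitude only.

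The stretches of sequence just before the transcription start listed by RefSeq are shown for 4 members that the results turn on, from RefSeq on GRCm38.p6, each 250 bases on the strand of the gene. Gpx6 had the most negative fold change of all members, Gpx3 was the most abundant, Gstk1 was called lower in every comparison, and Mgst1 was called higher in both comparisons at 3 weeks. The windows are chr13:21311953-21312202 (plus strand) for Gpx6, chr11:54902604-54902853 (plus strand) for Gpx3, chr6:42245685-42245934 (plus strand) for Gstk1 and chr6:138140277-138140526 (plus strand, the first of 2 listed starts) for Mgst1. Capitals mark the letters AAGGTCA, the core of the ERR response element, on either strand (written TGACCTT where it lies on the other strand), or TGACNNNGC, the core of the antioxidant response element, on either strand. RefSeq starts can differ from the first base of the GENCODE gene given with the results. The Gpx3 window lies inside the GENCODE gene, and the windows of Gpx6 and Mgst1 run past its first base, so these 3 do not stand before every annotated start.
Gpx6: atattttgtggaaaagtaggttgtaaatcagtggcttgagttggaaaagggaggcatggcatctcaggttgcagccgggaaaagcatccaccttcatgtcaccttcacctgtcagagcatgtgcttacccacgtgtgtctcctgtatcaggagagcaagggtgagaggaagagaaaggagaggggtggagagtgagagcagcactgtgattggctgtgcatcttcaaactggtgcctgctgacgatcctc
Gpx3: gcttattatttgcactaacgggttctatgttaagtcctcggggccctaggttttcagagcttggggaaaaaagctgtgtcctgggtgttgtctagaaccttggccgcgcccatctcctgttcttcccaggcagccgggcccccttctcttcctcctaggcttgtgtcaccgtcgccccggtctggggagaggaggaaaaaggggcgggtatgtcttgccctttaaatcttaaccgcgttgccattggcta
Gstk1: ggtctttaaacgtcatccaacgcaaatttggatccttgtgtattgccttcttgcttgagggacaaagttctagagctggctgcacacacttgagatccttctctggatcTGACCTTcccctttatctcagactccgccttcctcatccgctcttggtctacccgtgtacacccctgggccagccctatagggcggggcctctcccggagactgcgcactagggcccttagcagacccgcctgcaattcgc
Mgst1: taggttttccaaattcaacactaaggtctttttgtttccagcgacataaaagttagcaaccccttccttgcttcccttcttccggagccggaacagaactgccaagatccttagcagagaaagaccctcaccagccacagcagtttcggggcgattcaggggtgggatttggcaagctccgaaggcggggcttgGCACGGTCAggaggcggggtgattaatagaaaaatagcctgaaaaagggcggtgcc
RefSeq windows were found for 32 of the 37 members, 44 windows in all, and none was found for Gclc, Gsr, Gsta4, Gstt2 and Gpx2-ps1. The full ERR element TCAAGGTCA was in 0 of the 44 windows, against 0.387% of all 32851 windows. Its core AAGGTCA was in 2 of 44 (4.55%), those of Gstk1 and Gpx2, against 4.08% of all windows, and the full element contains this core. In Gstk1 it lay 141 to 135 bases before the start. The antioxidant core TGACNNNGC was in 5 of 44 (11.4%), those of Gsta3, Gstm5, Gstm7, Gclm and Mgst1, against 10.2% of all windows, and in Mgst1 it lay 56 to 48 bases before the start. These shares lie near those of all promoters, and a match of letters is not a binding site. The windows of Gpx6 and Gpx3 held none of the 3 letter strings.

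Gpx3 was by far the most abundant member and ranked first of all genes by mean count in every table. It took 2.55% of all normalised counts in 3-month males, 2.27% in 3-week females and 2.25% in 3-week males. The other 36 members took 0.631%, 0.541% and 0.528% between them in the same comparisons. In CPM per kilobase, the normalised count scaled to 1e6 counts in all and to the length of merged exons, a scale that allows levels of different genes to be compared, Gpx3 was at 14079 in 3-month males, 12508 in 3-week females and 12434 in 3-week males. Gpx1, the peroxidase of cytosol and mitochondria found in most cells, came next at 1101, 846 and 856 CPM per kilobase in the same order. Gstm1 followed at 652, 339 and 349, and Gsta2 stood at 205, 337 and 257. Gpx4, the peroxidase that reduces lipid peroxides within membranes, was at 202, 201 and 197. Counted reads of Gpx6 were far fewer, with 13.4 CPM per kilobase at 3 months, 28.3 in 3-week females and 26.3 in 3-week males. At the low end, Gpx5, the secreted peroxidase of the epididymis, had a mean of 0 in both comparisons of males and of 0.697 normalised counts in females, and Gpx2-ps1, a processed pseudogene, had a mean of 0 at 3 months and in females.

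**Figure D1:**
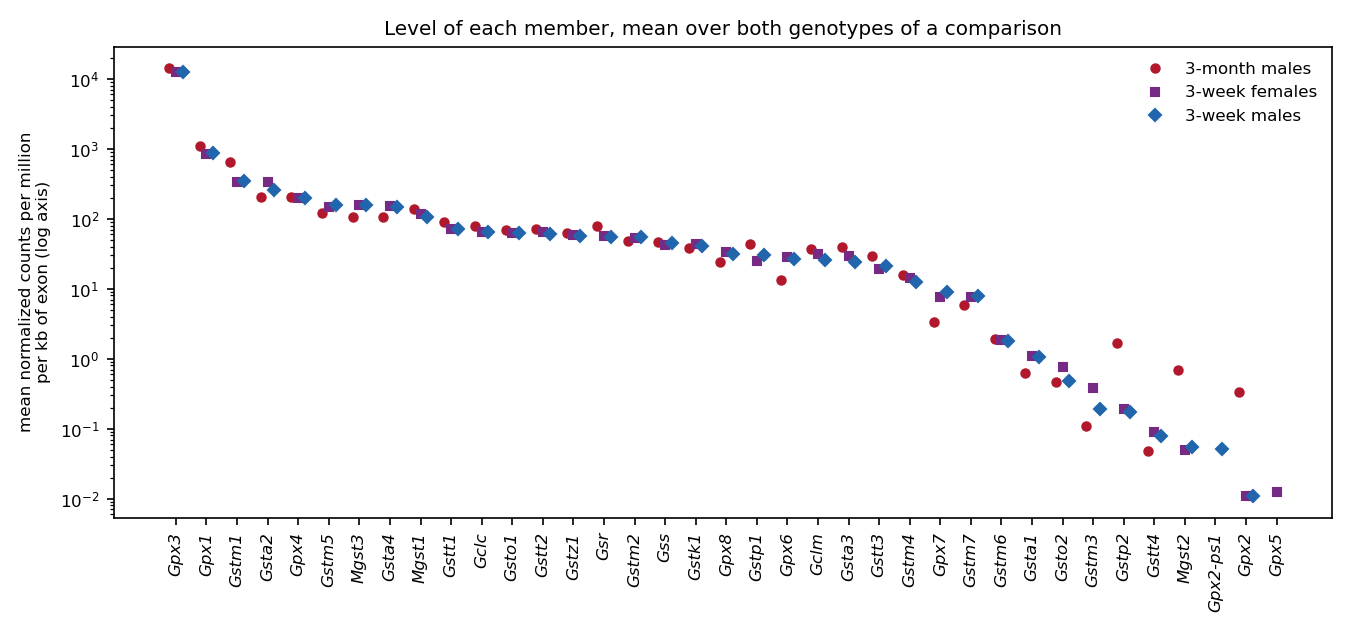
Level of each of the members with any count, as mean CPM per kilobase of exon (log axis) over both genotypes of a comparison, with 1 symbol per comparison and no error bars. Gpx3 stands at 12434 or above in each comparison, and Gpx2, Mgst2 and Gstp2 stand higher at 3 months than at 3 weeks.

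Of the 37 members, 25 had a p-value adjusted by the authors in 3-month males, 26 in 3-week females and 31 in 3-week males, and a gene is called here when that value is under 0.05. In 3-month males 6 members were higher and 10 lower in knockout, in 3-week females 5 and 9, and in 3-week males 7 and 7. The share called was 64% of tested members in 3-month males, 53.8% in 3-week females and 45.2% in 3-week males. Over all tested genes it was 57.5% in 3-month males, 18.7% in 3-week females and 17.3% in 3-week males. The share of members called at 3 months is therefore near that of all genes. By direction, the background was 29.8% higher and 27.8% lower in 3-month males, 8.29% and 10.4% in 3-week females, and 8.81% and 8.52% in 3-week males. Among genes with a mean of at least 1000 normalised counts, 10 of 16 members were called in 3-month males, 11 of 19 in 3-week females and 11 of 25 in 3-week males, against 63.8%, 20.6% and 15.9% of all such genes. Median log2 fold changes of tested members were -0.15 in 3-month males, -0.06 in 3-week females and -0.01 in 3-week males, beside 0.01, 0.01 and -0.01 over all tested genes.

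The counts by direction depend on scaling. With libraries scaled to equal total counts in both genotypes, which adds 0.49 to every log2 fold change in 3-month males, 0.15 in 3-week females and 0.18 in 3-week males, 11 members were higher and 6 lower in 3-month males. On that scale 7 were higher and 6 lower in 3-week females, and 8 and 5 in 3-week males. The same shift applies to every gene, and of all called genes 7107 were then higher and 1355 lower in 3-month males (84.0% higher), 2446 and 859 in 3-week females (74.0%), and 2129 and 701 in 3-week males (75.2%). The higher share of called members was smaller than this, at 64.7% in 3-month males, 53.8% in 3-week females and 61.5% in 3-week males. With a minimum change of 2-fold, 2 of 26 members (7.69%) were called in 3-week females and 3 of 31 (9.68%) in 3-week males, near the 5.17% and 7.02% of all tested genes. In 3-month males 11 of 25 members (44%) passed that minimum, against 28.6% of all tested genes. In all, 5 members were called in every comparison, each in 1 direction: Gpx1, Gpx3 and Gstk1 lower and Gpx7 and Gstm6 higher in knockout. A further 10 were called in 2 tables and 9 in 1, and 13 were called in none. No member had opposite calls, which without the filter on low means and outliers did not hold for Gsto1.

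**Figure D2:**
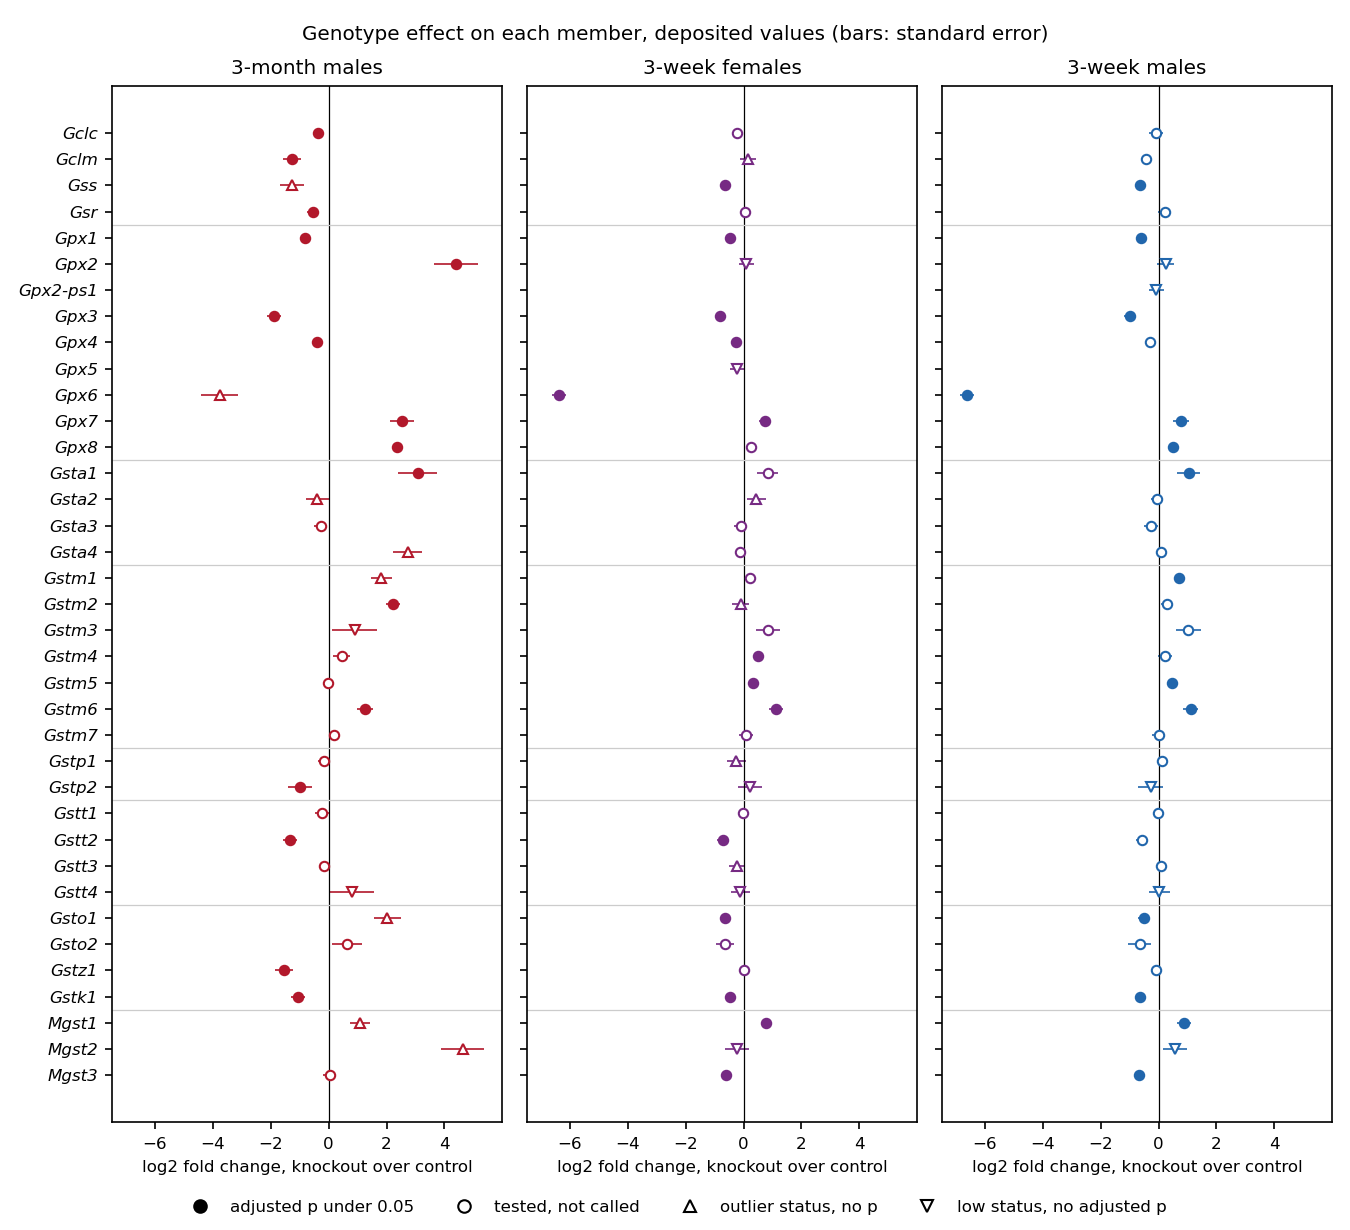
Deposited log2 fold change of knockout over control for every member in the 3 comparisons, with bars for the standard error and horizontal lines between groups of roles. Filled circles are called at adjusted p under 0.05, open circles were tested and not called, and triangles had no adjusted p; Gpx6 stands at -6.39 and -6.61 at 3 weeks, far left of all other members.

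In bulk kidney, fewer cells of a type and less RNA per cell cannot be told apart, and marker genes of several cell types moved between the genotypes. Of 20 proximal tubule markers, 5 were tested and all 5 were lower in 3-month males (the other 15 had no p-value), 7 of 14 tested were lower in 3-week females and 12 of 17 in 3-week males. Their median log2 fold changes were -2.04, -0.37 and -0.87 in that order, and none of the markers was at 0. Tubular injury markers were higher in 9 of 9 tested genes in 3-month males, 8 of 11 in 3-week females and 8 of 10 in 3-week males. Immune cell markers were higher in 18 of 19 tested genes in 3-month males, 10 of 19 in 3-week females and 12 of 20 in 3-week males, with medians of 2.71, 0.78 and 0.96. Fibroblast markers had medians of 3.16, 0.69 and 1.04, with 5 of 5, 6 of 9 and 2 of 3 tested genes higher. In 3-week females 1 of the 9 was lower. Thick ascending limb markers were lower in 1 of 1 tested gene in 3-month males, 6 of 8 in 3-week females and 7 of 9 in 3-week males. Endothelial markers were lower in 2 and higher in 1 of 7 tested genes in 3-month males. At 3 weeks 10 of 10 were lower in females and 6 of 10 in males, with none higher. Their medians were 0.10 in 3-month males, -0.94 in 3-week females and -0.62 in 3-week males. Distal convoluted and connecting tubule markers were lower in 3 of 3 tested genes in 3-month males, and in 5 of 8 in each comparison at 3 weeks. In both comparisons at 3 weeks 1 of the 8, Slc8a1, was higher (0.65 in females and 0.62 in males). Principal cell markers were higher in 4 of 5 tested genes in 3-month males, 1 of 2 in 3-week females and 4 of 7 in 3-week males, with medians of 0.77, 0.67 and 0.70 and none lower. Intercalated cell markers had medians of 0.26, -0.45 and -0.96 over tested genes. In 3-month males 1 of 3 tested genes was higher, and the other 8 of the 11 markers had no p-value. The fold changes of these 8 were all negative, from -5.32 for Slc4a1 to -0.001 for Foxi1. At 3 weeks 4 of 8 tested genes were lower in females and 5 of 9 in males. Of 10 fat cell markers, 3 of 4 tested genes were higher in 3-month males, and 0 of 1 in each comparison at 3 weeks. The part of these cell types in the values of the members was not tested.

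Among the peroxidases, Gpx1 and Gpx3 were lower in knockout in every comparison, and Gpx4 was lower in 2 (with its sign turned at 3 months on equal total counts). Gpx6 was called lower in both comparisons at 3 weeks, and Gpx2 was called higher in 3-month males. The 2 peroxidases of the endoplasmic reticulum were higher, Gpx7 in every comparison and Gpx8 in both of males. Gpx3, on chromosome 11 from 54902453 to 54910377 (plus strand, GRCm38), had mean normalised counts of 480012 in 3-month males, 767883 in 3-week females and 1.07e+06 in 3-week males. Its log2 fold change in the authors' deposited table was -1.89 ± 0.24 in 3-month males (adjusted p = 1.23e-13, DESeq2), -0.80 ± 0.15 in 3-week females (adjusted p = 2.54e-06) and -0.98 ± 0.20 in 3-week males (adjusted p = 3.03e-05). On a linear scale the RNA of Gpx3 fell 3.71-fold in 3-month males, 1.74-fold in 3-week females and 1.97-fold in 3-week males. Gpx1, on chromosome 9 from 108338903 to 108340343 (plus strand), fell in all 3 comparisons. The authors' deposited table gave it -0.83 ± 0.13 in 3-month males (adjusted p = 2.82e-09), -0.47 ± 0.14 in 3-week females (adjusted p = 0.00890) and -0.59 ± 0.20 in 3-week males (adjusted p = 0.0248). Its calls at 3 weeks were lost with equal total counts, at -0.32 in females and -0.41 in males. Red blood cells also hold much Gpx1 protein; of their 7 listed markers, of which 4 were at 0 at 3 months and 3 at 3 weeks, 2 of 2 tested genes were lower in 3-month males, 1 of 2 in 3-week females and 0 of 1 in 3-week males. For Gpx4 the authors' deposited table gave -0.40 ± 0.12 in 3-month males (adjusted p = 0.00278) and -0.25 ± 0.08 in 3-week females (adjusted p = 0.0190), and -0.28 ± 0.17 in 3-week males (adjusted p = 0.290), which was not called. Both calls of Gpx4 were lost with equal total counts, at 0.098 in 3-month males, with the sign turned, and at -0.10 in females, and 34.7% of its 50-base windows also occur in transcripts of 2 other genes.

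Gpx6, a close relative of Gpx3 that carries cysteine in place of selenocysteine in the mouse, showed the lowest fold change of all members. It lies on chromosome 13 from 21312125 to 21319624 (plus strand), next to Gpx5. Mean normalised counts were 344 in 3-month males, 1312 in 3-week females and 1706 in 3-week males. In the authors' deposited table it was at -6.39 ± 0.23 in 3-week females (adjusted p = 2.97e-159) and at -6.61 ± 0.25 in 3-week males (adjusted p = 2.95e-152). These log2 values are falls of 83.9-fold in 3-week females and 97.8-fold in 3-week males. In 3-month males Gpx6 had the status of an outlier and no p-value, at -3.77 ± 0.65 in the authors' deposited table. None of its 50-base windows occurs in a transcript of another gene, and so none is shared with Gpx3. Gpx5, its neighbour, stayed at or under a mean of 1 normalised count and had no adjusted p-value in any table.

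Gpx7 and Gpx8 sit in the endoplasmic reticulum and pass oxidising power to protein disulfide isomerases, and they have little activity with glutathione. Gpx7 had means of 80.1 normalised counts in 3-month males, 333 in 3-week females and 545 in 3-week males. The authors' deposited table gave it 2.54 ± 0.41 in 3-month males (adjusted p = 2.75e-09), 0.73 ± 0.18 in 3-week females (adjusted p = 0.000952) and 0.77 ± 0.27 in 3-week males (adjusted p = 0.0324). Gpx8, with means of 467, 1168 and 1560 normalised counts in the same order, rose by 2.38 ± 0.15 in 3-month males (adjusted p = 5.29e-56) and 0.51 ± 0.16 in 3-week males (adjusted p = 0.00940) in the authors' deposited table. In 3-week females it was at 0.24 ± 0.13 (adjusted p = 0.204) in the authors' deposited table and was not called. Gpx2, the peroxidase known from the lining of the gut, had means of 1.20 normalised counts in 3-week females and 1.66 in 3-week males, too low for an adjusted p-value. At 3 months its mean was 20.1, and it rose by 4.40 ± 0.75 on the log2 scale in the authors' deposited table (adjusted p = 2.91e-08). The promoter match of Gpx2 to the ERR element core lay 134 to 128 bases before the start. That core was in 4.55% of member windows and 4.08% of all windows, and a link to the fold change was not tested.

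Genes of glutathione synthesis and recycling were lower in knockout wherever they were called, and of these calls that of Gclc turned to the other sign with equal total counts. Gss, on chromosome 2 from 155563181 to 155592810 (minus strand), completes the tripeptide. In the authors' deposited table it fell by 0.63 ± 0.09 in 3-week females (adjusted p = 3.97e-11) and by 0.65 ± 0.17 in 3-week males (adjusted p = 0.00144), and at 3 months it was an outlier without a p-value at -1.28 ± 0.41. Gclm, the modifier subunit of the rate-limiting ligase, was called in 3-month males only, at -1.28 ± 0.31 in the authors' deposited table (adjusted p = 0.000117). At 3 weeks Gclm was at 0.15 ± 0.28 in females, as an outlier without a p-value, and at -0.43 ± 0.19 in males (adjusted p = 0.104) in the authors' deposited table. Gclc, the catalytic subunit, was at -0.35 ± 0.10 in 3-month males (adjusted p = 0.00135) in the authors' deposited table, and this turned to 0.14 with equal total counts. It was at -0.23 ± 0.11 in 3-week females (adjusted p = 0.132) and at -0.08 ± 0.24 in 3-week males (adjusted p = 0.892) in the authors' deposited table. Gsr, glutathione reductase, was at -0.54 ± 0.20 in 3-month males (adjusted p = 0.0164), at 0.05 ± 0.18 in 3-week females and at 0.21 ± 0.22 in 3-week males in the authors' deposited table, and its call was lost with equal total counts (-0.04).

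The mu class transferases form 1 cluster of 7 genes on chromosome 3 from 107895821 to 108044894, a span of 149 kb, in the order Gstm5, Gstm7, Gstm6, Gstm3, Gstm2, Gstm1 and Gstm4. Wherever a member of this class was called it was higher in knockout, with 2 of 5 tested in 3-month males, 3 of 6 in 3-week females and 3 of 7 in 3-week males, beside 29.8%, 8.29% and 8.81% of all tested genes higher in the same comparisons. The count at 3 months is near that background. Gstm6 had means of 70.5 normalised counts in 3-month males, 125 in 3-week females and 167 in 3-week males, and it rose in each. The authors' deposited table gave it 1.26 ± 0.28 in 3-month males (adjusted p = 2.34e-05), 1.12 ± 0.25 in 3-week females (adjusted p = 0.000107) and 1.11 ± 0.26 in 3-week males (adjusted p = 0.000234). Gstm2 rose by 2.23 ± 0.24 in 3-month males (adjusted p = 6.45e-19) in the authors' deposited table, against 0.28 ± 0.20 in 3-week males (adjusted p = 0.390), where it was not called. In 3-week females Gstm2 was an outlier at -0.10 ± 0.30 in the authors' deposited table. Gstm1, the most abundant of the class, rose by 0.71 ± 0.19 in 3-week males (adjusted p = 0.00199) and was at 0.23 ± 0.20 in 3-week females (adjusted p = 0.470) in the authors' deposited table. At 3 months it was an outlier at 1.81 ± 0.37 in the authors' deposited table, without a p-value. Gstm5 rose by 0.32 ± 0.10 in 3-week females (adjusted p = 0.00877) and 0.46 ± 0.16 in 3-week males (adjusted p = 0.0336), and it was at -0.04 ± 0.11 in 3-month males (adjusted p = 0.785), in the authors' deposited table. With equal total counts its value in 3-month males turned to 0.46. Gstm4 was called in 3-week females only, at 0.49 ± 0.17 in the authors' deposited table (adjusted p = 0.0295), and Gstm3 and Gstm7 were called nowhere. Reads could be shared within the class, since 28.8% of the 50-base windows of Gstm3, 18.9% of those of Gstm1, 5.97% of those of Gstm6 and 5.65% of those of Gstm2 occur in transcripts of other genes.

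**Figure D3:**
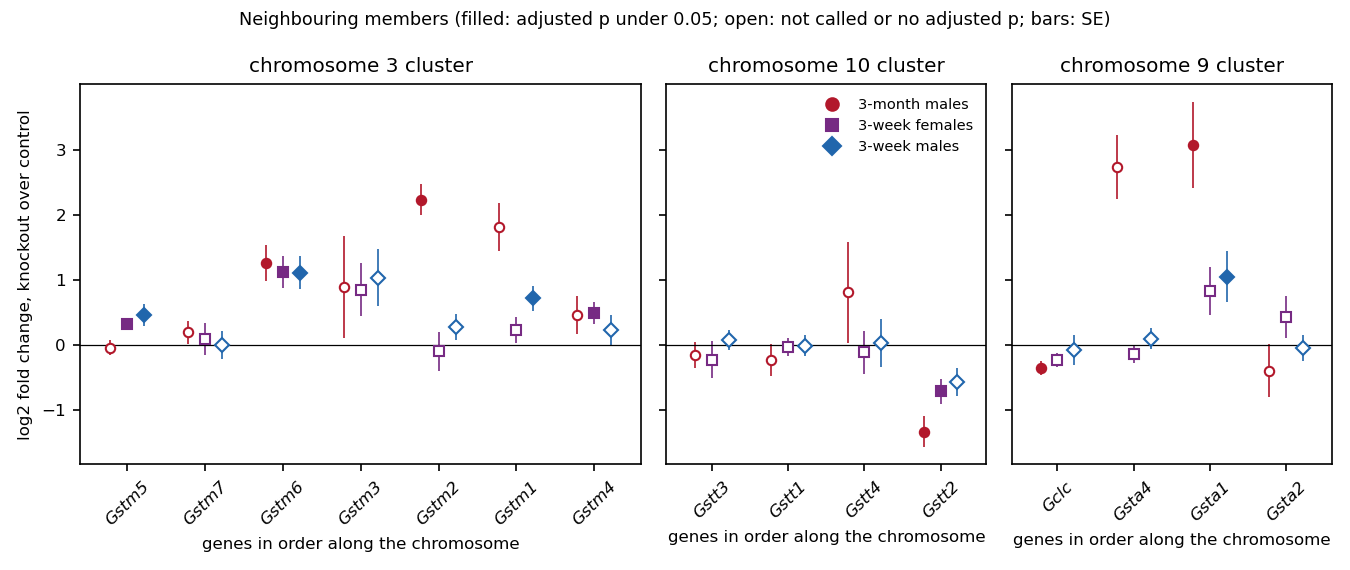
Deposited log2 fold changes of members in clusters on chromosomes 3, 10 and 9, in their order along the chromosome, with bars for the standard error and filled symbols for adjusted p under 0.05. A cluster joins members with gaps of at most 1e+06 bases. By that rule Gclc, which ends at 77794485, stands with the alpha genes of chromosome 9, of which Gsta4 starts at 78182774. On chromosome 3 Gstm6 stands between 1.11 and 1.26 in all 3 comparisons while Gstm7 beside it stands between 0.00 and 0.20; on chromosome 10 Gstt2 was called lower in 2 comparisons and no other theta gene was called.

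In the alpha class, which handles lipid peroxidation products, Gsta1 alone was called, higher in both comparisons of males, of which the call at 3 weeks was lost without the filter on low means and outliers (adjusted p = 0.0560). Gsta1 was at 3.07 ± 0.66 in 3-month males (adjusted p = 1.32e-05), at 0.83 ± 0.37 in 3-week females (adjusted p = 0.107) and at 1.05 ± 0.40 in 3-week males (adjusted p = 0.0467) in the authors' deposited table. It is a low gene with means of 11.3, 35.3 and 47.7 normalised counts in that order, and 90.5% of its 50-base windows occur in transcripts of other genes, so its counts are uncertain. Gsta2, far more abundant at 4530, 13431 and 14379 normalised counts, was at -0.05 ± 0.21 in 3-week males (adjusted p = 0.929) in the authors' deposited table and was an outlier in both others. It shares 49.8% of its windows with other genes. Gsta4, the transferase for the lipid aldehyde 4-hydroxynonenal, was at -0.14 ± 0.14 in 3-week females (adjusted p = 0.530) and at 0.10 ± 0.17 in 3-week males (adjusted p = 0.779) in the authors' deposited table. At 3 months the authors' deposited table had it as an outlier at 2.73 ± 0.49 without a p-value. Gsta3, on chromosome 1 apart from the cluster, was called in no comparison.

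Theta, pi, omega, zeta and kappa class genes were lower in knockout wherever they were called, with the filter on low means and outliers in place. Gstk1, the transferase of mitochondria and peroxisomes, on chromosome 6 from 42245935 to 42250447 (plus strand), had means of 1067 normalised counts in 3-month males, 2149 in 3-week females and 2879 in 3-week males. It fell by 1.05 ± 0.25 in 3-month males (adjusted p = 6.53e-05), by 0.49 ± 0.15 in 3-week females (adjusted p = 0.0118) and by 0.64 ± 0.15 in 3-week males (adjusted p = 0.000544) in the authors' deposited table. With equal total counts the call in females was lost, at -0.34. Gstt2 fell by 1.33 ± 0.24 in 3-month males (adjusted p = 1.71e-07) and by 0.71 ± 0.19 in 3-week females (adjusted p = 0.00258), and it was at -0.57 ± 0.22 in 3-week males (adjusted p = 0.0527), in the authors' deposited table. The other theta genes, Gstt1, Gstt3 and Gstt4, were called nowhere, and Gstt4 had means of 0.890 to 3.69 normalised counts. Gstz1, which isomerises maleylacetoacetate in the breakdown of tyrosine, fell by 1.54 ± 0.30 in 3-month males (adjusted p = 8.70e-07) in the authors' deposited table. At 3 weeks the authors' deposited table gave Gstz1 0.00 ± 0.17 in females (adjusted p = 0.991) and -0.09 ± 0.15 in males (adjusted p = 0.761). Gsto1, an omega class enzyme that reduces dehydroascorbate, fell by 0.63 ± 0.13 in 3-week females (adjusted p = 4.46e-05) and by 0.52 ± 0.19 in 3-week males (adjusted p = 0.0453) in the authors' deposited table. The value of Gsto1 at 3 months was positive in the authors' deposited table, at 2.03 ± 0.45, but the gene was an outlier without a p-value, and the call in 3-week males was lost with equal total counts (-0.34) and without the filter (adjusted p = 0.0543). Gstp2 was at -0.99 ± 0.42 in 3-month males (adjusted p = 0.0328) in the authors' deposited table, a call lost with equal total counts (-0.50), and it shares 54.3% of its windows with other genes. Gstp1, the main pi class gene with 1258 to 2228 normalised counts, was called nowhere, like Gsto2.

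The microsomal transferases are membrane proteins, and 2 of them moved in opposite directions at 3 weeks. Mgst1, on chromosome 6 from 138140316 to 138156755 (plus strand), had means of 5211 normalised counts in 3-month males, 7844 in 3-week females and 10273 in 3-week males. It rose by 0.79 ± 0.08 in 3-week females (adjusted p = 6.83e-19) and 0.88 ± 0.24 in 3-week males (adjusted p = 0.00249) in the authors' deposited table. At 3 months it was an outlier at 1.07 ± 0.34 in the authors' deposited table, without a p-value. Mgst3 fell by 0.62 ± 0.09 in 3-week females (adjusted p = 3.50e-11) and by 0.67 ± 0.16 in 3-week males (adjusted p = 0.000294), and it was at 0.04 ± 0.23 in 3-month males (adjusted p = 0.904), in the authors' deposited table. Mgst2, which can also make leukotriene C4, had means of 6.16 normalised counts in 3-week females and 9.73 in 3-week males, and of 48.8 at 3 months. In 3-month males the authors' deposited table gave Mgst2 4.63 ± 0.75, as an outlier without a p-value.

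The genotype effect of each member was then compared between 3 months and 3 weeks in males, and between the sexes at 3 weeks, with a normal test of the difference of the 2 deposited fold changes, adjusted over all genes tested in both tables. The comparisons share no library. Between 3 months and 3 weeks 9 of 23 tested members differed (39.1%), against 27.7% of 12355 genes. The effect was more positive at 3 months for Gstm2 (difference in log2 fold change 1.95 ± 0.31, adjusted p = 2.10e-08), Gpx8 (1.86 ± 0.22, adjusted p = 1.89e-15), Gpx7 (1.77 ± 0.49, adjusted p = 0.00230) and Gsta1 (2.02 ± 0.77, adjusted p = 0.0357). Mgst3 also differed upwards (0.71 ± 0.28, adjusted p = 0.0446), a call lost when the median of tested genes was subtracted (0.69, adjusted p = 0.0504). The effect was more negative at 3 months for Gstz1 (-1.45 ± 0.33, adjusted p = 0.000154), Gpx3 (-0.91 ± 0.32, adjusted p = 0.0199), Gsr (-0.75 ± 0.30, adjusted p = 0.0452) and Gstm5 (-0.50 ± 0.20, adjusted p = 0.0471). With equal total counts the differences of Gpx3 (-0.59), Gsr (-0.43) and Gstm5 (-0.18) were lost, and 30.4% of members differed, against 34.6% of all genes. At an adjusted p under 0.01 the shares were 17.4% of members and 17.7% of all genes, so the members' excess over all genes depended on scaling and threshold. Without the filter on low means and outliers the difference of Gstm5 was lost too (adjusted p = 0.0502). Standard errors reached 1.10 in the table of 3-month males and 0.44 in that of 3-week males. In 3-week males Gpx2, with a mean of 1.66 normalised counts, had a smaller standard error (0.29) than Gsta1 (0.40) at 47.7. This is the pattern of fold changes drawn towards 0 where counts are few, by an amount that can differ between comparisons. Differences of members with few counts, such as Gsta1, carry this limit. The part of separate normalisation and modelling in these differences was not tested.

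Between the sexes at 3 weeks, 0 of 26 tested members differed by the normal test, with 0 at an unadjusted p under 0.05 and a smallest adjusted p of 1.00. Over all genes the percent called was 0, with 237 of 13737 (1.73%) at an unadjusted p under 0.05. That share is smaller than the threshold itself would give if no gene differed, so the test was conservative between the sexes. A p-value that misses the threshold does not show that both sexes respond alike.

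**Figure D4:**
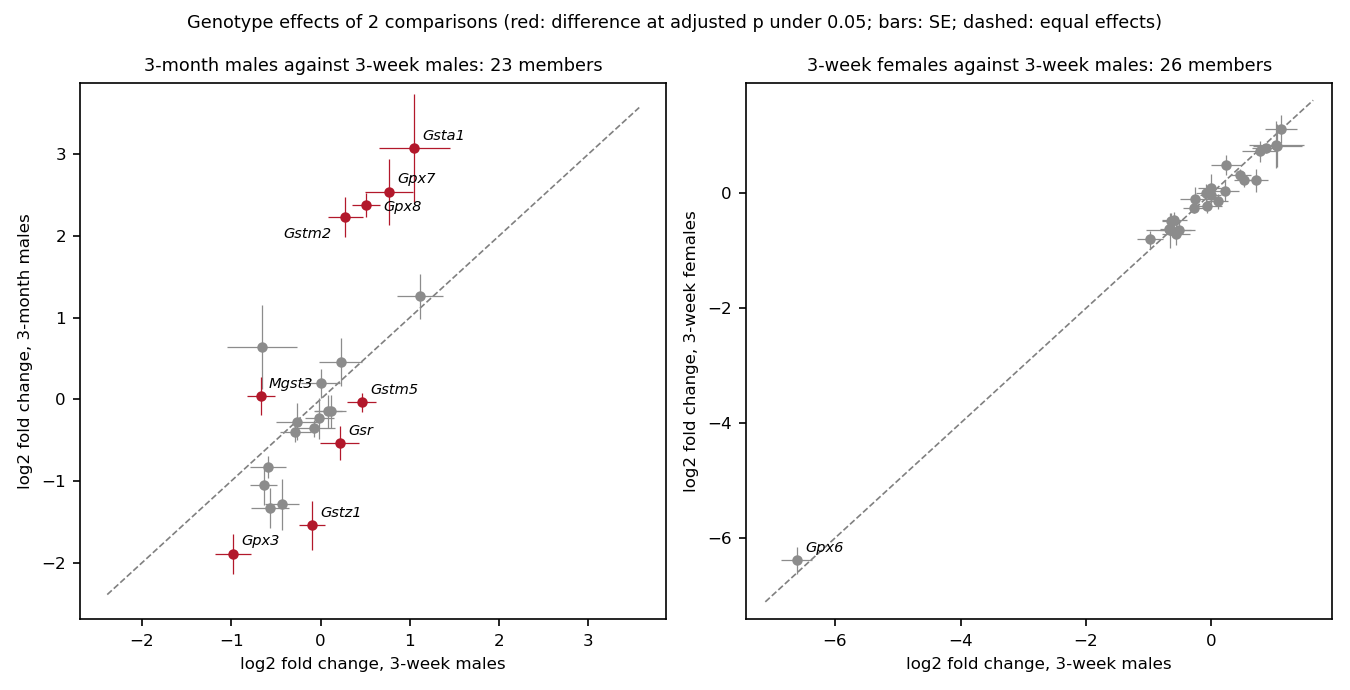
Log2 fold change of knockout over control of each member tested in both comparisons, 3-month males against 3-week males at left (23 members) and 3-week females against 3-week males at right (26 members), with bars for the standard errors and a dashed line of equal effects. Red points, 9 at left and 0 at right, differed at adjusted p under 0.05.

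Among called genes of the glutathione cycle and of peroxide defence, more were lower than higher in knockout in every comparison, which with equal total counts did not hold for the cycle in 3-week males. Over all tested genes 29.8% were higher and 27.8% lower in 3-month males, 8.29% and 10.4% in 3-week females, and 8.81% and 8.52% in 3-week males, and with equal total counts 84.0%, 74.0% and 75.2% of all called genes were higher in the same order. In a list of 41 genes of the glutathione cycle, transport and other glutathione users, 9 of 31 tested were higher and 19 lower in 3-month males, 2 of 35 and 14 in 3-week females, and 2 of 39 and 7 in 3-week males. Their medians were -0.76, -0.12 and -0.15 in that order, and with equal total counts 11 were higher and 13 lower in 3-month males, 5 and 7 in 3-week females, and 5 and 3 in 3-week males. Hpgds, the prostaglandin D synthase of blood-derived cells that uses glutathione, was higher throughout, at 3.22 ± 0.32 in 3-month males, 1.93 ± 0.29 in 3-week females and 1.64 ± 0.31 in 3-week males in the authors' deposited table. Oplah, which recycles oxoproline to glutamate, was at -1.42 ± 0.11 and Sqrdl, the mitochondrial sulfide oxidase, at -1.01 ± 0.09 in 3-month males in the authors' deposited table. At 3 weeks Oplah was called lower in females only and Sqrdl in males only. Dpep2, with a mean of 48.3 normalised counts, was higher in 3-month males at 4.12 ± 0.44 in the authors' deposited table. Ggct, which releases oxoproline from glutathione fragments, was at -1.48 ± 0.19 in 3-month males, -0.99 ± 0.18 in 3-week females and -1.29 ± 0.21 in 3-week males in the authors' deposited table. Dpep1, the brush border dipeptidase that splits cysteinylglycine, was at -1.30 ± 0.16 in 3-week females and -0.99 ± 0.25 in 3-week males in the authors' deposited table.

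Peroxiredoxins, thioredoxins, catalase and superoxide dismutases were lower in 14 and higher in 3 of 22 tested genes in 3-month males, 12 and 1 of 27 in 3-week females, and 7 and 1 of 27 in 3-week males, with medians of -0.53, -0.22 and -0.31. With equal total counts the lower and higher genes were 7 and 5 in 3-month males, 4 and 2 in 3-week females, and 5 and 2 in 3-week males. The mitochondrial dismutase Sod2 was at -1.45 ± 0.27 in 3-month males, -0.80 ± 0.09 in 3-week females and -0.90 ± 0.15 in 3-week males in the authors' deposited table. Prdx5 was at -1.29 ± 0.19, -0.72 ± 0.13 and -0.92 ± 0.17 in the same order in the authors' deposited table. Nnt, which supplies mitochondrial NADPH for glutathione reduction, fell by 1.00 ± 0.15 in 3-week males and by 0.54 ± 0.21 in 3-week females in the authors' deposited table. In 3-month males Nnt was an outlier without a p-value. At 3 months Park7 was at -0.85 ± 0.06, Msrb1 at -1.32 ± 0.10 and the mitochondrial peroxiredoxin Prdx3 at -0.88 ± 0.09 in the authors' deposited table. Park7 was also called lower in both comparisons at 3 weeks and Msrb1 in 3-week females, while Prdx3 was called in neither.

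NRF2, encoded by Nfe2l2, is the transcription factor best known for switching on glutathione genes. Of 30 genes for NRF2 and its known targets outside the members, 7 of 23 tested were higher and 9 lower in 3-month males, 5 and 5 of 27 in 3-week females, and 2 and 4 of 28 in 3-week males. The medians were -0.07, -0.13 and -0.13, and with equal total counts 12 were higher and 5 lower in 3-month males, 5 and 2 in 3-week females, and 3 and 0 in 3-week males. Akr1b8, an aldo-keto reductase, was at 1.22 ± 0.27 in 3-week females and 2.19 ± 0.22 in 3-week males, and Fth1, the ferritin heavy chain, was at -0.60 ± 0.12 and -0.52 ± 0.17, in the authors' deposited table. In 3-month males Fth1 was at -1.05 ± 0.11, and Akr1b8 was an outlier at 4.89 ± 0.53 without a p-value. At 3 months Abcc3, an exporter of conjugates, was at 5.40 ± 0.41 and Ephx1, a microsomal epoxide hydrolase, at 2.00 ± 0.17 in the authors' deposited table. Both were called the other way at 3 weeks in the authors' deposited table, Ephx1 in females at -0.91 ± 0.26 (adjusted p = 0.00402) and Abcc3 in males at -0.46 ± 0.17 (adjusted p = 0.0436). Nfe2l2 itself was at 0.87 ± 0.15 in 3-month males (adjusted p = 2.56e-08), 0.31 ± 0.10 in 3-week females (adjusted p = 0.0167) and 0.26 ± 0.18 in 3-week males (adjusted p = 0.380, not called) in the authors' deposited table. Of the widely used target genes Nqo1, Hmox1 and Srxn1, none was called in 3-month males or in 3-week males, and Hmox1 was lower in 3-week females at -0.57 ± 0.22 (adjusted p = 0.0480) in the authors' deposited table. These 4 genes and the opposite calls were named after their values were seen.

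Of 29 selenoproteins outside the peroxidases and genes of their synthesis, the tables listed 26. Of these, 6 of 23 tested were higher and 11 lower in 3-month males, 2 and 2 of 25 in 3-week females, and 2 and 3 of 25 in 3-week males. The medians were -0.43, -0.04 and -0.14, and with equal total counts 11 were higher and 6 lower in 3-month males. Sepn1, a selenoprotein of the endoplasmic reticulum like Gpx7 and Gpx8 in location, rose by 2.62 ± 0.19 in 3-month males, 0.74 ± 0.17 in 3-week females and 0.85 ± 0.25 in 3-week males in the authors' deposited table. Dio2, with a mean of 59.9 normalised counts, was higher in 3-month males at 5.75 ± 0.55 in the authors' deposited table. Sepp1, the selenium carrier of plasma, fell by 1.54 ± 0.17 in 3-month males in the authors' deposited table. At 3 weeks Sepp1 was not called, at -0.20 ± 0.13 in females and -0.43 ± 0.21 in males. The kidney receptor of Sepp1, Lrp2 (megalin), was at -0.87 ± 0.18 and Dio1, a deiodinase, at -1.09 ± 0.18 in 3-week males in the authors' deposited table. Neither was called in 3-week females, at -0.29 ± 0.24 for Lrp2 and -0.54 ± 0.24 for Dio1, and both were outliers without a p-value at 3 months.

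**Figure D5:**
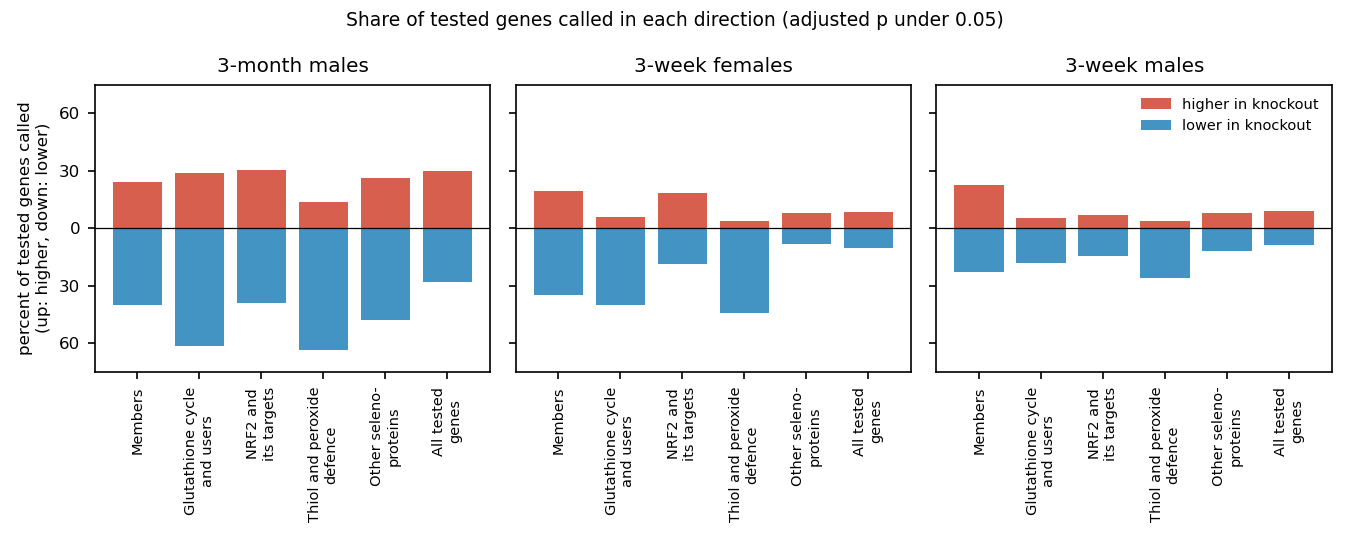
Percent of tested genes called higher (up) and lower (down) in knockout among the members, 4 surrounding gene lists and all tested genes, for each comparison. In 3-month males the members' bars of 24% higher and 40% lower stand beside 29.8% and 27.8% of all tested genes, and at 3 weeks the members' bars are longer than those of all tested genes in both directions.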

How the data were processed

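Per the labels' protocols, kidney RNA was sequenced from TruSeq Stranded mRNA libraries. Per the submitters' processing notes, the build was mm10 and the tools were STAR, HOMER and DESeq2, in versions not given in the sources used here. Each of 3 deposited files holds 1 of the authors' comparisons, with DESeq2's columns per the file headers. In these deposited files the mean of normalised counts is a signal that is never negative. The fold change and its standard error are on the log2 scale, per the file headers. The p-value and the adjusted p-value are the authors' own, and 100% of p-values at 3 weeks and 99.98% at 3 months equalled the normal p of the fold change over its standard error within 1%. No raw count per library was used here. Genes with status Low had means of at most 9.97 in 3-month males, 10.00 in 3-week females and 10.00 in 3-week males. Outliers (1513, 843 and 613 genes in the same order) carry a fold change without a p-value, and the rule is not stated in the headers. Date-like symbols (27 per table) were left out.

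Replicates are the labelled kidneys, and p-values reflect the scatter among the libraries of a table, since the labels do not say whether each kidney came from its own litter. A step is a low mean that recurs in 20 genes or more and is no sum of smaller steps, and it takes the sign of the fold change. Positions and exon lengths are from GENCODE M21 (GRCm38, as mm10), promoters from RefSeq (GRCm38.p6). Shared sequence was measured as 50-base windows of GENCODE transcripts. Differences between comparisons were tested in Python 3.11.15 with scipy 1.17.1 as the difference over the root of the summed squared standard errors, with Benjamini-Hochberg adjustment. The code of the test was run on simulated effects with normal errors at the deposited standard errors. The test assumes such errors, so that run cannot show how well it suits these data. Alternatives were thresholds of 0.01 and 0.1, a minimum of 2-fold, no filter on low means and outliers, subtraction of the median, equal total counts and another exon length. A background of genes with a mean of at least 1000 was added after seeing the data. Members and lists were chosen with earlier results of these data known. Every member is accounted for. Values are given for members called in any table or among the top 10 per kilobase, and full statistics for those called in all tables or among the 5 largest called changes of a table. For each surrounding list some of the 4 called genes with the smallest p in a comparison are named. Others of these were left out.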

Additional observations from a re-analysis of the deposited data

Results flagged for a closer look

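For 9 of 23 tested members (39.1%) the genotype effect in 3-month males differed from that in 3-week males by the normal test of the difference. Over all 12355 genes tested the share was 27.7%. At an adjusted p under 0.01 the shares were 17.4% of members and 17.7% of all genes. With equal total counts they were 30.4% and 34.6%. The difference in log2 fold change was 1.95 for Gstm2, 1.86 for Gpx8, 1.77 for Gpx7, 2.02 for Gsta1 and 0.71 for Mgst3. It was -1.45 for Gstz1, -0.91 for Gpx3, -0.75 for Gsr and -0.50 for Gstm5. The calls of Gpx3, Gsr and Gstm5 were lost with equal total counts, and that of Mgst3 with the median subtracted. Means of Gsta1 are low and most of its sequence is shared with other genes. Fold changes of genes with few counts may be drawn towards 0, by an amount that can differ between comparisons. Outlier tests within a group need values per kidney and were not run.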

How the results depend on the processing

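Called members stayed within 1.5 times its main value in 3-month males, 3-week females and 3-week males under a threshold of 0.1, without the filter, with the median subtracted and with equal total counts. At a threshold of 0.01, 9 of 31 tested members (29.0%) were called in 3-week males, against 14 at 0.05, beside 11.5% of all tested genes. Differences between ages were then called for 4 of 23 members (17.4%), against 9, beside 17.7% of all genes. With a minimum of 2-fold, 2 of 26 members were called in 3-week females and 3 of 31 in 3-week males. These were 7.69% and 9.68%, beside 5.17% and 7.02% of all tested genes. With that minimum 5 of 23 members (21.7%) differed between ages, beside 18.0% of all genes. Without the filter on low means and outliers 14 of 35 members (40%) differed between ages, beside 25.3% of all genes. Among genes with a mean of at least 1000 normalised counts, 10 of 16 tested members (62.5%) were called in 3-month males. The share was 16 of 25 (64%) without that minimum, and 63.8% of all genes with such means were called. The difference between the sexes stayed at 0 members under every alternative run. With equal total counts 8 members changed sign in 3-month males, by construction of the shift. Of these, 2 had been called, Gclc (0.14) and Gpx4 (0.098), and Gstm5 (0.46) was called only after the shift. The other 5 were Gsta2, Gsta3, Gstp1, Gstt1 and Gstt3. In 3-week females 5 and in 3-week males 6 members changed sign, none of them called. The log2 fold changes of 3-month outliers (Gss, Gpx6, Gsta4, Gstm1, Gsto1, Mgst1 and Mgst2) would be called without the filter, and Gsta2 would not. Gsto1 would then have opposite calls, higher in 3-month males (2.03) and lower in 3-week females (-0.63). With the length of the longest transcript in place of merged exons, 9 of the 10 highest members per kilobase were shared in each comparison. No paired analysis was possible because no replicate number is shared between groups and the tables hold no value per kidney, for which reason no kidney could be left out either.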
